A study of Mus musculus with 6 samples.

Results

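The transcripts described here were the lncRNA transcripts of the mouse prefrontal cortex (PFC) that lay far from every measured mRNA. A lncRNA transcript was taken when the interval the deposited table gives for it was more than 50000 bases from every mRNA transcript in the data, on either strand, and when it reached 0.5 FPKM (fragments per kilobase of transcript, scaled to the size of the library) in at least 3 of the 6 mice. Of 25974 lncRNA transcripts, 5221 were that far from the 32870 mRNA transcripts, and 4779 of these passed the filter on low values. The other lncRNA transcripts that passed the same filter served for comparison: 5282 lay within 50000 bases of an mRNA without touching it, and 13579 overlapped one.

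All mice were male C57BL/6 of 6 to 8 weeks. The 3 RSD mice had gone through repeated social defeat: an aggressive CD-1 male was put into the residents' home cage for 2 h a night, 6 nights running. Undisturbed mice in another room, 3 to a cage, were the 3 controls. The PFC was taken from every mouse straight after an elevated plus maze test, and RSD mice were sequenced only if that test showed anxiety-like behaviour, so defeat, selection on behaviour and housing cannot be told apart. Which RSD mice shared a cage is not given in the sources used here. Nothing in the labels names a batch.

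Long noncoding RNAs are transcripts without a long reading frame, and many stay in the nucleus. Those that lie between coding genes are transcribed from promoters of their own or from distal enhancers, and some serve as precursors from which microRNAs or small nucleolar RNAs are cut. Brain cortex is known for several large transcripts of this kind, among them the imprinted Meg3 and Snhg14 and the hosts of the neuronal microRNAs miR-9, miR-124 and miR-137.

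The sequences that tie these transcripts to known products come from RefSeq (GRCm38.p6). Of 1005 microRNA hairpins in that annotation, 61 lay inside a far lncRNA on the same strand, 33 of them on chromosome 12 and 11 on chromosome 7. The mature microRNAs below are printed 5′ to 3′ with the seed (bases 2 to 8) in capitals. They are discussed with far transcripts that contain their hairpin, except miR-29b and miR-29a. No far transcript contained the hairpin of miR-29b-1 or miR-29a on the same strand, and far transcripts only ended upstream of them. miR-29b and miR-29a share a seed, and so do miR-221 and miR-222.
miR-29b-3p: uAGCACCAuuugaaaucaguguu
miR-29a-3p: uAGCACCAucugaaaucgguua
miR-770-5p: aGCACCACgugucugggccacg
miR-134-5p: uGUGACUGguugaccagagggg
miR-379-5p: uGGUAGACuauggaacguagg
miR-9-5p: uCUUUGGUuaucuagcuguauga
miR-137-3p: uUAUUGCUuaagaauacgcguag
miR-125b-5p: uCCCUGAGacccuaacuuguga
miR-99a-5p: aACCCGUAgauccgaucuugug
let-7c-5p: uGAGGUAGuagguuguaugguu
miR-221-3p: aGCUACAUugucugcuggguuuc
miR-222-3p: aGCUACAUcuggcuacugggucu

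Of the host genes of lncRNAs described below, Meg3, Firre and Lncpint have a RefSeq start site at which far transcripts begin, 13, 5 and 1 of them within 100 bases. Their promoters, 300 bases around that start, are Meg3 at chr12:109540746-109541045 (plus strand), Firre at chrX:50635272-50635571 (minus strand) and Lncpint at chr6:31218425-31218724 (minus strand). Capitals mark the matches of 3 motifs searched on both strands.
Meg3: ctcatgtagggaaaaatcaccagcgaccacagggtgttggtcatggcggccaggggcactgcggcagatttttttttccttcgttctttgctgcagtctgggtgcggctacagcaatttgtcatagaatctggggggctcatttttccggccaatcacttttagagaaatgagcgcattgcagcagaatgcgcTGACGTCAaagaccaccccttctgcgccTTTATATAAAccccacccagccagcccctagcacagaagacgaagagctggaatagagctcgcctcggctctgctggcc
Firre: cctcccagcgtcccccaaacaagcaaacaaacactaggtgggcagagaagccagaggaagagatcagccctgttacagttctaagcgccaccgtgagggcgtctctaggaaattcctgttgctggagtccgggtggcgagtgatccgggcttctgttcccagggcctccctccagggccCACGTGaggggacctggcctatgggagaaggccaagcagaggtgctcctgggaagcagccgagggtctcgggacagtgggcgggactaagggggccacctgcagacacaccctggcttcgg
Lncpint: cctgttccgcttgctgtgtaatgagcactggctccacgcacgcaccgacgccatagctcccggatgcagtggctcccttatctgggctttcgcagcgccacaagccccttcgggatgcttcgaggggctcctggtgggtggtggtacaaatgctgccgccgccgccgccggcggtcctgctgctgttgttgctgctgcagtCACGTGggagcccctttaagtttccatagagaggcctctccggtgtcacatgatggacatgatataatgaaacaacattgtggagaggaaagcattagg
The Meg3 promoter holds TGACGTCA, the cyclic AMP response element, at -57, and TATAAA, the TATA box, at -25 with an overlapping match on the other strand at -29. The E-box CACGTG stands at -71 in Firre and at -49 in Lncpint. Of 32851 RefSeq promoters of this length, 1.79% hold TGACGTCA, 13.6% TATAAA and 7.15% CACGTG. These are matches of letters and not measured sites.

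The name intergenic held only against the mRNA transcripts that the study measured. In RefSeq, 1751 of the 4779 transcripts (36.6%) overlapped a protein-coding gene on the same strand, in 162 genes. A further 48 (1.0%) overlapped one on the opposite strand and 112 (2.34%) one whose strand was not given. Any overlap was counted, so a transcript may reach beyond the gene. Another 1364 (28.5%) overlapped only an annotated lncRNA gene, 185 (3.87%) only another kind of gene, and 1319 (27.6%) no gene at all. So 1911 (40%) overlapped a coding gene although no mRNA transcript of the table came within 50000 bases, and 2868 (60.0%) overlapped none.

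**Figure D1:**
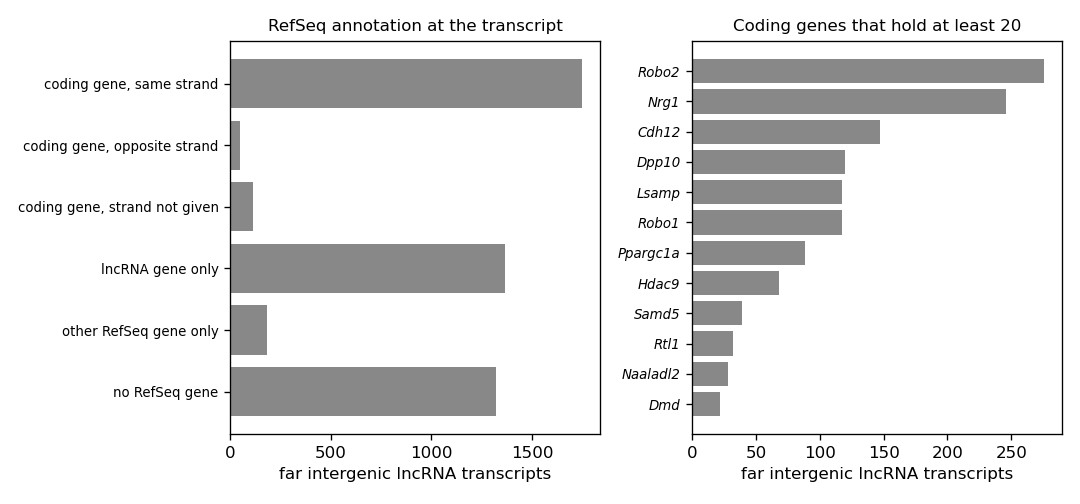
Horizontal bars give the number of far lncRNA transcripts by what RefSeq annotates at them (left) and in each protein-coding gene that holds at least 20 (right). The longest bar on the left is the 1751 transcripts that overlap a coding gene on the same strand, and on the right Robo2 holds 276 and Nrg1 246.

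Robo2 is the fullest example. It is an axon guidance receptor for Slit proteins, and its RefSeq gene spans chr16:73891976-75447443. The 6 Robo2 mRNA transcripts of the table end at 74411825, while 276 far lncRNA transcripts on the same strand filled the gene from 74462899 to 75447279. Their FPKM came in sum to 1620, 2480 and 2480 in controls and 2010, 1950 and 2090 after RSD, so all RSD sums lay within the control range. The 6 mRNA transcripts summed to 14, 21.1 and 21.1 against 11.7, 24.7 and 23.8 FPKM.

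A few large neuronal genes held, in the sense of overlapping, many of the transcripts. The 8 genes with the most held 1179 (24.7%), out of 214 host genes of which 90 held exactly 1. Nrg1, a ligand of ErbB receptors, held 246, with sums of 930, 1860 and 1510 FPKM in control mice and 1120, 1060 and 1340 in RSD mice. Cdh12, a cadherin, held 147 with no mRNA transcript of its own in the table, at 451, 530 and 536 against 461, 455 and 522. Dpp10, an auxiliary subunit of Kv4 potassium channels, held 120, at 1010, 2040 and 1810 against 1470, 1470 and 1840. In Cdh12 and Dpp10, as in Nrg1, the groups overlapped. In Nrg1 221 of the 246 had a negative log2 fold change (median -0.23), but the median was 0.0 without control 2 and -0.52 without control 1.

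Lsamp, a neuronal adhesion protein of the immunoglobulin family, and Robo1, the other Slit receptor here, held 117 each. Lsamp summed to 275, 460 and 391 in control and 320, 318 and 323 in RSD mice, and Robo1 to 195, 397 and 295 against 251, 232 and 282. Ppargc1a, a coactivator of mitochondrial genes, held 88 at 159, 265 and 245 against 230, 229 and 277. Hdac9, a histone deacetylase, held 68 at 124, 182 and 153 against 118, 121 and 122. Only in Hdac9, among these 8, was every RSD sum below every control sum. A separation in that direction was shown by 8.05% of all lncRNA loci tested, a locus being the transcripts under 1 locus ID. The Hdac9 sum is over 68 transcripts, so the units are unlike. The genes with 20 to 39 were Samd5, Rtl1, Naaladl2 and Dmd. The 32 at Rtl1, a gene whose strand was not given, only overlapped it. They covered chr12:109540996-109686293, a stretch with the lncRNAs Meg3 and Rian, while Rtl1 itself is at 109564900-109604418.

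Distance, span and strand varied widely. The gap to the nearest mRNA had a median of 196096 bases (quartiles 96706 and 377763), and 218 transcripts (4.56%) were more than 1000000 bases away. The farthest, MERGE.49328.1 on chromosome Y, lay 31901659 bases from one and was listed at 0, 9.07 and 14.6 FPKM in control and 5.06, 0 and 23.5 in RSD mice. Next came NONMMUT002295.2 in Cntnap5a (2585483 bases) and NONMMUT154232.1 on chromosome X (2564940 bases). Another 2 were on unplaced scaffolds that carry no mRNA.

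Just inside the limit of distance, MERGE.9777.2 lay 50018 bases from Ttc9, at 6.61, 6.19 and 5.21 FPKM in control and 7.15, 6.74 and 7.02 in RSD mice. Just outside it, NONMMUT117571.1 lay 49981 bases from Kazn, at 0.873, 1.99 and 2.34 against 1.64, 1.69 and 2.17.

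The transcripts were short on the genome, with a median span of 1499 bases (quartiles 905.5 and 3129.5), against 1641.5 for those within 50000 bases of an mRNA and 2656 for those overlapping one. The longest, MERGE.10673.2, covered 557335 bases of Ryr2, the ryanodine receptor of neurons and heart, and was listed at 1.12, 0 and 0.574 FPKM in control and 1.74, 1.19 and 1.53 in RSD mice. Its isoform MERGE.10673.8, of 553551 bases, read 1.26, 0.103 and 5.14 against 1.28, 0.877 and 1.2. The shortest, of 201 bases, were MERGE.48996.1 opposite Col4a6 and NONMMUT147315.1, 64837 bases from Crh, which encodes corticotropin-releasing hormone. NONMMUT147315.1 read 3.17, 1.41 and 2.65 in control and 0.532, 1.47 and 1.28 in RSD mice, and the groups overlapped.

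More transcripts were on the minus strand (2949, 61.7%) than on the plus strand (1830), against 50.4% for those within 50000 bases of an mRNA and 57.6% for those overlapping one. Neighbours on the same strand share that strand. Joined where they were at most 50000 bases apart, the transcripts formed 686 runs, of which 353 (51.5%) were on the minus strand, and 26 runs with at least 40 transcripts held 2460 (51.5%) of them. Chromosome 16, with Robo2, Robo1 and Lsamp, held 614 (12.8%), against 6.33% of all lncRNA transcripts tested. Only 139 (2.91%) began within 100 bases of a RefSeq start site, against 5.07% and 8.42% in the nearer classes.

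The median level of a far lncRNA over the mice was 1.59 FPKM (quartiles 0.878 and 3.17), above the 0.991 of those within 50000 bases of an mRNA and below the 1.77 of those overlapping one. Those overlapping a coding gene had a median of 2.7 FPKM and those overlapping none 1.24. At the top, 277 (5.8%) reached a mean of 10 FPKM, and 1445 (30.2%) stayed under 1. In all 6 mice, 3343 (70.0%) reached 0.5 FPKM, while 154 (3.22%) were listed at 0 in at least 1 mouse.

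Mouse by mouse, the median far lncRNA stood at 1.27, 1.88 and 1.77 FPKM in control and 1.45, 1.34 and 1.56 in RSD mice. Control 1 was the lowest of all 6, and controls 2 and 3 the highest, so the RSD medians fell between the control values. The nearer lncRNAs were ordered in a like way, at 0.861, 1.18 and 1.12 against 0.935, 0.881 and 1.0 within 50000 bases, and at 1.37, 1.93 and 1.83 against 1.56, 1.56 and 1.76 where they overlapped an mRNA. Far lncRNAs took 11.7% to 16.8% of the lncRNA FPKM in control and 13.6% to 18% in RSD mice.

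**Figure D2:**
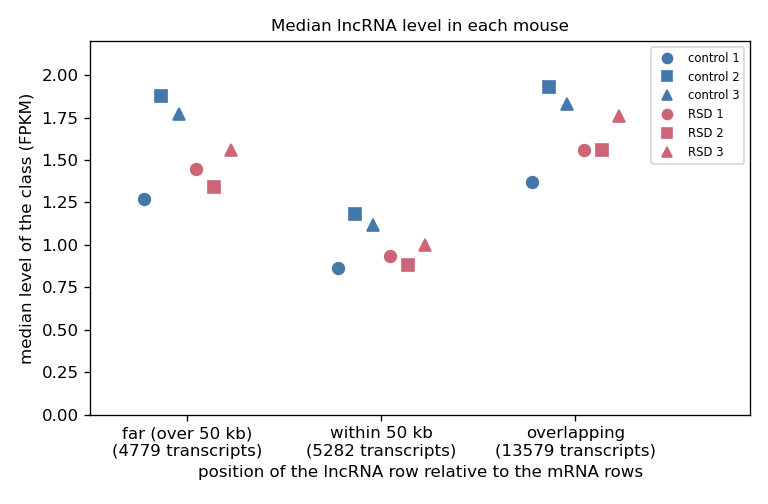
Each point is the median level in FPKM of the lncRNA transcripts of a class in 1 mouse, for far transcripts and for those within 50 kb of or overlapping an mRNA row. In the far class control 1 is lowest at 1.27 FPKM and control 2 highest at 1.88, with the RSD mice between.

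Within the control group the listed value of a marker of the tissue differed. Slc17a7, which loads glutamate into the vesicles of excitatory cortical cells, was listed at 311, 0 and 0.0055 FPKM in control and 327, 331 and 311 in RSD mice. A value listed at 0 in these files can be a failed estimate, and it is not read here as absence of the RNA. The 5 excitatory markers, all present, summed with it to 62.4 to 390 FPKM in control and 383 to 424 in RSD mice, and Neurod6, another of them, was at 15.8 to 21.0 and 19.0 to 21.5. Oligodendrocyte markers (4 of 4 present) summed to 95.0 to 163 and 164 to 204, and striatal markers (4 of 6, without Drd2 and Adora2a) to 20.4 to 41.6 and 34.7 to 38.6. Of the olfactory bulb markers Eomes and Tbx21 had no transcript in the table, and Cdhr1 was at 0.492 to 0.56 and 0.583 to 0.672. Endothelial markers summed to 17.9, 13.2 and 7.69 FPKM in control and 8.43, 7.73 and 7.27 in RSD mice. Choroid plexus markers (2 of 3, without Folr1) summed to 3.75, 0.857 and 0.659 against 0.453, 0.6 and 0.824. Blood markers summed to 106, 178 and 247 against 261, 216 and 142. In bulk tissue, fewer cells of a type and less RNA per cell cannot be told apart. The part of these differences in the results below was not tested. Read counts were not used here. From the lowest values, the read depth of the other 5 libraries was estimated at 0.857 to 0.966 of that of control 1. Each estimate was the most common ratio, held by 38 to 64 of the 137 to 193 transcripts compared. Only ratios within a range set beforehand were considered.

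By the sum over all lncRNA transcripts of a locus ID, far or not, the most abundant locus was Snhg14. It is a paternally expressed lncRNA of the Prader-Willi region from which small nucleolar RNAs are cut and whose far end runs antisense to Ube3a. Summed over locus MERGE.40818 its 129 lncRNA transcripts, 80 of them far, came to 953, 990 and 808 FPKM in control mice and 952, 782 and 914 in RSD mice. The means were 917 ± 96.4 (SD, n = 3) and 883 ± 89.4 (SD, n = 3), a log2 fold change of -0.05 (exact permutation test, two-sided, p = 0.5). No exact test of 3 against 3 mice can go below 0.1. The leading transcript, MERGE.40818.164, read 18.9, 15.6 and 27.5 against 51.0, 69.7 and 15.6 FPKM. Far transcripts alone, 103 in the whole Snhg14 gene, summed to 631, 736 and 658 against 668, 558 and 653. In every mouse that was less than the far transcripts in Robo2, Nrg1 or Dpp10, so the rank depends on the division into locus IDs.

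Single isoforms of that locus could be at 0 in a mouse while the sum held. MERGE.40818.157 was listed at 41.3, 46.3 and 0 FPKM in control and 24.0, 20.2 and 0.0738 in RSD mice, and MERGE.40818.98 at 20.2, 53.5 and 0 against 45.4, 0 and 0. The SD of log2 levels over the mice, within groups, was 0.126 for the locus sum and 0.666 for its median far transcript, and 19 of the 80 were listed at 0 in at least 1 mouse. The same held in 15 of the 16 loci with at least 10 far transcripts, where the median SD was 0.289 for sums and 0.532 for transcripts. Locus sums are therefore given beside single transcripts below.

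Next in abundance was locus MERGE.1885 in Dpp10, at 530, 1030 and 913 FPKM in control and 757, 741 and 954 in RSD mice (exact p = 0.9). Locus MERGE.19402 lies on chromosome 17 around Rn18s-rs5, a pseudogene of 18S ribosomal RNA, the class of RNA that library preparation removes. It summed to 705, 33.6 and 41.2 in control and 2650, 908 and 525 in RSD mice, with means of 260 ± 385 and 1360 ± 1130 (SD, n = 3 each, exact p = 0.2). Control 1 exceeded RSD 3 and the groups overlapped. Its leading transcript NONMMUT029642.2 (chr17:39843013-39846341) ran from 11.9 in control 2 to 2630 in RSD 1.

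Meg3, the maternally expressed lncRNA whose promoter is printed above, followed after the Lncpint locus described below. Locus MERGE.10307 summed to 118, 283 and 154 FPKM in control and 170, 148 and 198 in RSD mice (185 ± 86.8 against 172 ± 25, SD, n = 3 each, exact p = 0.9). Its leading transcript MERGE.10307.2 starts at the RefSeq start site (chr12:109540996-109549775) and stood at 27.2, 51.0 and 51.0 against 40.3, 41.3 and 50.7.

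The remaining loci among the 10 most abundant were MERGE.18228, MERGE.18185 and MERGE.18098, all in Robo2 (exact p = 1.0, 1.0 and 0.6), and a pair with 1 transcript each. NONMMUT057333.2, of 282 bases in the immunoglobulin kappa region Igk, read 81.4, 157 and 102 FPKM in control and 168, 110 and 124 in RSD mice (exact p = 0.4). MERGE.21533.2, of 252 bases in the lncRNA gene Gm30821 on chromosome 18, read 245, 80.9 and 97.2 against 93.2, 50.5 and 68.4 (exact p = 0.2). In all 10 the groups overlapped.

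**Figure D3:**
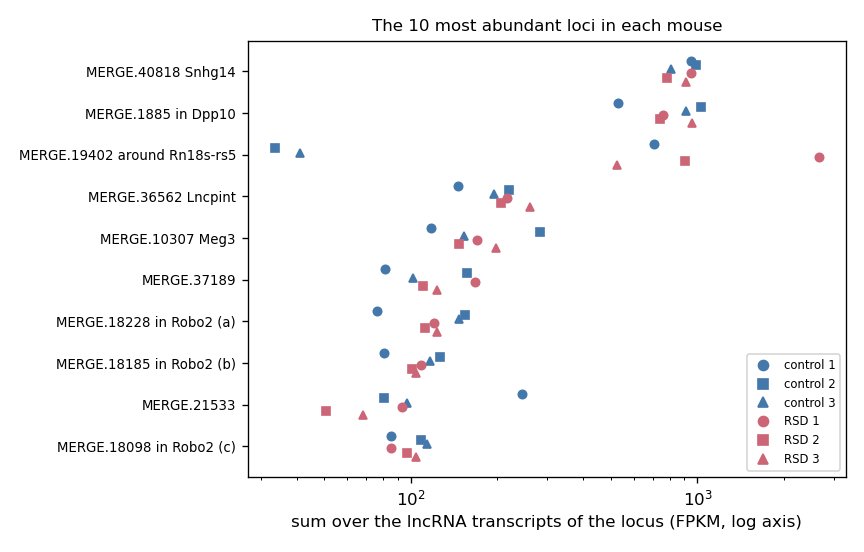
Points give, for each of the 10 most abundant loci with a far lncRNA, the FPKM sum over its lncRNA transcripts in each of the 6 mice on a log axis. Control and RSD mice overlap in every locus, and the locus around Rn18s-rs5 spreads most, from 33.6 to 2650 FPKM.

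Of 38 known lncRNAs of brain or of imprinted or nuclear function that were looked up, 18 were matched to far transcripts, 317 in all. Malat1, Miat, Dlx6os1, Snhg11, Pantr1, Oip5os1 and 2 others had transcripts that were not far from an mRNA, and none was matched to the other 12. A match by position needed the strand of the gene, which the annotation used did not give for every gene. A missing match is therefore not read as absence, and the counts of genes and transcripts hold only for those matched. None of the 317 passed an adjusted p of 0.05, and in 14 of the 18 genes the per-mouse sums of the groups overlapped. The exceptions were Lncpint, Firre, Tunar and Mir124a-1hg. Over all lncRNA loci tested, the groups were apart in 3.32% with RSD higher and in 8.05% with RSD lower, though a locus is a single locus ID and a gene sum can cover several.

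In the imprinted region of chromosome 12, Rian, a host of small nucleolar RNAs, summed over 24 far transcripts to 100, 119 and 96.8 FPKM in control and 96.8, 95.0 and 105 in RSD mice. Mirg, a host of many microRNAs downstream of it, summed over 5 to 5.59, 13.1 and 9.45 against 6.32, 10.2 and 11.5. Its transcript NONMMUT015851.2, which contains the hairpins of miR-134 and other microRNAs, was listed at 0.576, 1.57 and 1.23 in control and 0.537, 0.149 and 0.0037 in RSD mice. That transcript had an unadjusted p of 0.024 (limma) and an adjusted p of 0.927, and the groups, though apart, nearly met.

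Kcnq1ot1, a paternally expressed silencer of its neighbours, had 1 far transcript, at 4.82, 8.44 and 7.52 FPKM in control and 0.00018, 5.82 and 6.71 in RSD mice. Its locus, with 1 more transcript, summed to 4.83, 8.44 and 7.52 against 5.06, 5.82 and 6.72, so the low value in RSD 1 was that of 1 isoform. Jpx and Ftx, from the X inactivation centre, had 4 and 2. Jpx summed to 2.35, 5.0 and 4.4 against 2.59, 2.49 and 2.79, and Ftx to 1.87, 0.858 and 2.06 against 1.75, 1.48 and 0.917. Dleu2, a host of miR-15 and miR-16, had 3 at 6.66, 12.0 and 9.96 against 6.8, 7.32 and 8.63. All 4 overlapped between groups.

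Hosts of neuronal microRNAs were among them. C130071C03Rik, the gene over the miR-9-2 hairpin, summed over 7 far transcripts to 13.1, 16.4 and 9.65 FPKM in control and 14.2, 12.9 and 10.4 in RSD mice, and Mir9-3hg over 4 to 11.6, 17.4 and 14.7 against 13.9, 17.1 and 16.1. Mir99ahg, which holds miR-99a and let-7c, summed over 13 to 10.1, 17.7 and 15.6 against 11.2, 12.2 and 11.4. A230006K03Rik, with 46 far transcripts near Snhg14, summed to 97.3, 177 and 151 against 115, 103 and 132. All overlapped between groups. The others had 1 each, A830009L08Rik at 1.35, 0.556 and 0.489 against 0.816, 0.878 and 0.418, and Gm42418, in the locus around Rn18s-rs5 whose sums are given above, at 100, 13.7 and 17.8 against 0.367, 74.2 and 34.4.

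By hairpin, the 16 far transcripts that contain miR-770, in Meg3, summed to 52.4, 37.5 and 55.3 FPKM in control and 67.7, 58.7 and 61.1 in RSD mice, with no overlap. The transcript over miR-137 read 2.63, 0.861 and 2.09 against 3.45, 2.76 and 1.83. Those over miR-125b-1, in Mir100hg, summed to 7.19, 7.8 and 7.62 against 5.66, 7.57 and 9.21, and those over miR-221 and miR-222 to 4.17, 10.2 and 8.19 against 5.36, 5.24 and 5.96. MERGE.10466.87, the 1 far transcript over miR-379, read 1.05, 1.54 and 1.28 against 1.35, 1.15 and 1.51. Of the hairpins in this paragraph so far, all but miR-770 overlapped between groups. Others were apart too. The transcript over miR-129-1 read 0.982, 0.909 and 1.05 against 1.14, 1.28 and 1.4. The 2 over miR-485 summed to 1.14, 2.32 and 1.86 against 1.12, 1.0 and 0.0791. Among all single lncRNA transcripts tested, groups were apart in 3.49% with RSD higher and in 7.49% with RSD lower. Of 76 far transcripts that contain a hairpin, 1 was higher and 2 were lower in RSD mice at an unadjusted p of at most 0.05 with a change of 1 or more in size on the log2 scale, which 1.07% (higher) and 1.37% (lower) of all lncRNA transcripts passed. The mature microRNAs themselves were not measured.

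The comparison of RSD with control mice asks which far lncRNAs differ after defeat stress. It was read at an adjusted p under 0.05 (limma on log2(FPKM + 0.1), Benjamini-Hochberg over all 23640 lncRNA transcripts tested) and at the threshold set in the study's methods, an unadjusted p of at most 0.05 with a change of 1 or more in size on the log2 scale. None of the 4779 was higher in RSD mice at the adjusted threshold, where 0.0465% of all lncRNA transcripts were, and 1 was lower (0.0209%, against 0.055% of all). At an unadjusted p of at most 0.05 there were 286 (5.98%, against 5.28% of all), 71 higher and 215 lower.

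At the study threshold 33 were higher (0.691%, against 1.07% of all lncRNA transcripts) and 66 were lower (1.38%, against 1.37%). With every library scaled to the same median, the split was 38 higher and 49 lower, and with quantile normalization 37 and 50. With a pseudocount of 1 in place of 0.1 it was 14 and 10. Groups did not overlap for 134 that were higher (2.8%, against 3.49% of all) and 416 that were lower (8.7%, against 7.49%). The share lower at the study threshold was near that of lncRNAs in general and the share higher was below it, a difference of shares that was not tested. Of the 317 in the known genes, 10 were higher and 7 lower at the study threshold.

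The log2 fold change was negative for 3083 of the 4779 (64.5%), against 60.8% of all lncRNA transcripts tested, with a median of -0.119 against -0.086. That median moved with single control mice. Without control 2 the median of the far transcripts was -0.006, and without control 1 it was -0.31, with -0.243 over all. Scaling to a common median gave -0.029, with 0.004 over all. Those are also the mice at the extremes of the median level and, for control 1, the control with Slc17a7 listed at the RSD level.

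**Figure D4:**
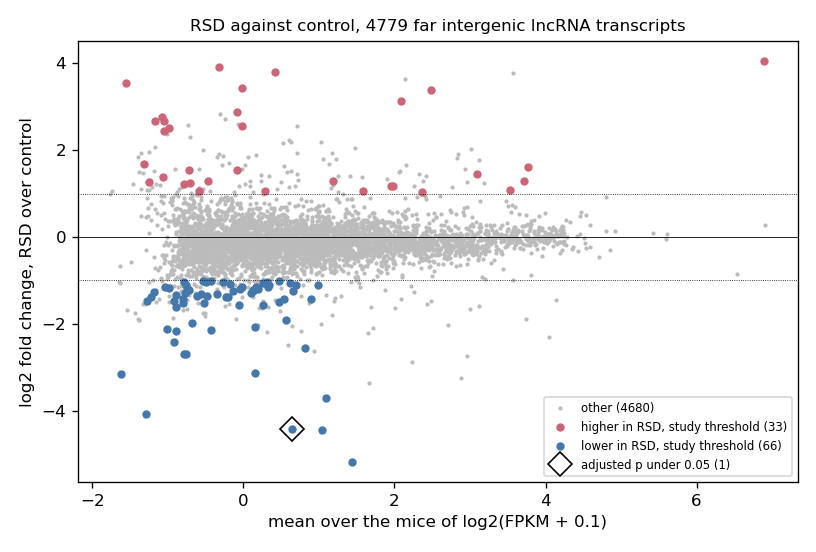
Each point is 1 of the 4779 far lncRNA transcripts, with the mean over the mice of log2(FPKM + 0.1) on the x axis and the log2 fold change of RSD over control on the y axis. The 33 red points are higher and the 66 blue points lower at the study threshold, and the diamond marks the 1 transcript past the adjusted threshold.

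Many of these calls were of weak transcripts or of single isoforms. Of all far transcripts, 60 (1.26%) reached 0.5 FPKM in every mouse of a group and in none of the other, so they passed the filter on low values only through the group where they were higher and had to differ, and 34 of the 99 calls were among them. Of the 99, 51 had a mean under 1 FPKM and 6 a mean of at least 10. Another division was by locus: 50 were the sole lncRNA transcript of their locus and 49 had others beside them. Of the 49, the locus sum passed in the same direction for 2, and their log2 fold changes had a median size of 2.14, against 0.27 for those of the sums. By position, 20 overlapped a coding gene, and the 99 were spread over 65 runs.

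The 6 abundant ones show both kinds. In Snhg14, MERGE.40818.191 read 2.66, 14.6 and 11.6 FPKM in control and 25.3, 21.2 and 24.4 in RSD mice, while MERGE.40818.199 read 9.34, 32.1 and 14.4 against 0, 0 and 9.12, in a locus whose sum did not differ beyond its spread. In Dpp10, NONMMUT078693.1 read 14, 0.378 and 0.678 against 17.8, 16 and 20.6, with control 1 near the RSD values, an order over the mice like that of the listed values of Slc17a7. NONMMUT150320.1 in Lncpint, the sole transcript of its locus, read 9.75, 8.4 and 5.96 against 18.2, 17.3 and 14.8, a log2 fold change of 1.08 (SE 0.232, limma, adjusted p = 0.61). NONMMUT093153.1, described with Mir124a-1hg below, and NONMMUT029642.2 beside Rn18s-rs5 complete them.

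The transcript past the adjusted threshold was NONMMUT150291.1, of 20149 bases on the minus strand at chr6:31063748-31083896. It read 6.23, 7.57 and 7.67 FPKM in control mice and 0.175, 0.139 and 0.484 in RSD mice, so that every control mouse was far above every RSD mouse. The means were 7.15 ± 0.803 and 0.266 ± 0.189 (SD, n = 3 each), a log2 fold change of -4.42 (SE 0.367, limma, adjusted p = 0.0153). No RSD mouse reached 0.5 FPKM, so it was tested only because of its level in the control mice, and its p is to be read with that selection. RefSeq has no gene at it. Lncpint, a lncRNA known in mouse as a target of the tumour suppressor Trp53, lies upstream on the same strand (chr6:31093563-31218474), and the 3′ end of NONMMUT150291.1 lies 654 bases before the hairpin of miR-29b-1, whose mature sequence is printed above with that of miR-29a.

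The other transcripts at the same place did not share that difference. Inside its span 8 more far transcripts lay on the same strand, with log2 fold changes of -0.2 to 0.68 (median 0.26), 6 of them positive and none past the study threshold. Their FPKM summed to 35.2, 41.2 and 37.0 in control and 44.4, 45.9 and 53.4 in RSD mice, with every RSD mouse above every control mouse. An isoform of the same locus, MERGE.36562.2 (chr6:31074043-31105600), read 2.42, 2.65 and 2.37 against 5.8, 5.91 and 5.41, a log2 fold change of 1.17 (SE 0.167, limma, adjusted p = 0.178). The locus sum, over 30 transcripts, was 146, 220 and 196 against 216, 207 and 261 (log2 fold change 0.30, adjusted p = 0.925).

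The adjusted p of NONMMUT150291.1 stayed under 0.05 in 10 of 16 alternatives, over a range of 0.00399 to 0.118, with a log2 fold change from -4.96 to -2.69. It was 0.0728 without control 2, 0.0639 without control 3, 0.0853 without RSD 1 and 0.0549 without RSD 2.

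Lncpint as a whole held 68 far transcripts, 59 of them with a positive log2 fold change (median 0.25). They summed to 511, 637 and 605 FPKM in control and 676, 659 and 766 in RSD mice, or 584 ± 65.7 against 700 ± 57.6 (SD, n = 3 each), and the groups did not overlap. They fall into 40 loci, of which 10 were higher in every RSD mouse than in any control mouse, against 3.32% of all loci tested. The 40 are neighbouring pieces of the same gene on the same strand. They are not independent observations, and setting them beside shares of all loci is no test. Of the 40 loci 35 had a positive log2 fold change, while over all loci tested 62.6% were negative. Of the 68 transcripts 3 passed the study threshold, all higher, where 1.07% of all lncRNA transcripts were higher and 1.37% lower. None of these loci or transcripts had an adjusted p under 0.05. The median log2 fold change of the 68 stayed between 0.14, without control 1, and 0.34, with libraries scaled to the same median, in 15 alternative fits.

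Firre, an X-linked nuclear lncRNA with local repeats, gave other results by transcript and by locus. Its 8 far transcripts summed to 8.61, 12.2 and 9.73 FPKM in control and 4.6, 4.38 and 6.33 in RSD mice, without overlap. Summed over all 12 transcripts of the locus the values were 8.87, 14.6 and 12.7 against 6.89, 6.77 and 9.24, which overlap between groups, with a log2 fold change of -0.64 (SE 0.25, limma, unadjusted p = 0.0371, adjusted p = 0.877). At the study threshold 3 transcripts were lower and 1, NONMMUT072368.2, was higher, at 0.457, 0 and 0 against 1.15, 0.693 and 1.32, over the filter in the RSD mice alone. That threshold was passed by 1.37% (lower) and 1.07% (higher) of all lncRNA transcripts tested.

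At Mir124a-1hg, the host of the neuronal miR-124, the Ensembl transcript and its locus pointed in opposite directions. The former read 2.16, 1.06 and 1.56 FPKM in control and 0.983, 0.863 and 0.67 in RSD mice. The 9 transcripts of locus MERGE.13554 summed to 34.3, 25.9 and 56.9 against 71.2, 65.5 and 68.8, with a log2 fold change of 0.89 (SE 0.285, limma, unadjusted p = 0.0163, adjusted p = 0.839). NONMMUT093153.1 led that sum, at 14.7, 6.06 and 6.47 against 18.7, 27.1 and 16.7. Tunar, a lncRNA of neural differentiation with 1 transcript, read 1.32, 1.04 and 1.17 against 0.908, 0.737 and 0.794 (log2 fold change -0.48, adjusted p = 0.887).

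Over sums, none of the 3801 loci with a far transcript passed the adjusted threshold in limma, where 0.0317% of the 18943 lncRNA loci tested did in each direction. At an unadjusted p of at most 0.05 there were 255 (6.71%, against 5.59% of all). The groups did not overlap in 451 (11.9%), against 3.32% higher and 8.05% lower over all loci. At the study threshold 13 were higher (0.342%, against 0.813%) and 46 lower (1.21%, against 1.34%). That split was 25 and 31 with libraries scaled to the same median, 23 and 30 with quantile normalization, and 3 and 1 with a pseudocount of 1.

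The loci with the smallest p were mostly single short transcripts. NONMMUT145231.1 (chr17:77674256-77674663, minus strand), in no RefSeq gene, was listed at 0 in every control and 0.936, 1.34 and 0.947 FPKM after RSD (locus adjusted p = 0.0852, limma). It passed the filter only through the RSD mice, so a difference was a condition of its being tested. NONMMUT043279.2, in the pseudogene Gm8325 on chromosome 3, read 4.3, 4.76 and 6.44 in control and 18.6, 15.1 and 9.81 after RSD, a log2 fold change of 1.44 (SE 0.288, adjusted p = 0.505). NONMMUT152435.1 in Gse1 read 0.309, 0.311 and 0.17 against 0.903, 1.05 and 0.865, and it too passed only through the RSD mice. NONMMUT070299.2 in Tent5a, a poly(A) polymerase, read 0.748, 1.01 and 0.544 against 1.83, 1.5 and 1.68. In each of these every RSD mouse was above every control mouse, and none passed an adjusted p of 0.05.

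On the lower side, 2 of the 5 loci with the smallest p lay in the same run on chromosome 18. There NONMMUT103149.1 read 2.12, 2.56 and 2.16 FPKM in control and 0.823, 0.704 and 0.841 after RSD, a log2 fold change of -1.42 (SE 0.203, limma, adjusted p = 0.165), and NONMMUT103138.1 read 1.93, 2.95 and 2.16 against 0.964, 0.722 and 1.13. MERGE.23389.1 on chromosome 2 read 2.43, 1.4 and 2.24 against 0.654, 0.632 and 0.513, and NONMMUT134872.1 on chromosome 9 read 1.26, 0.984 and 1.01 against 0.27, 0.33 and 0.337, under the filter in every RSD mouse. Locus MERGE.1659 on chromosome 1 summed to 2.63, 3.48 and 2.53 against 1.19, 1.5 and 1.21. None of the groups overlapped, with adjusted p values from 0.165 to 0.548.

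Among single transcripts of larger loci, NONMMUT086706.1 in the lncRNA gene Gm31508 read 1.38, 1.39 and 1.35 in control and 0.241, 0.14 and 0.0452 in RSD mice (log2 fold change -2.69, limma, adjusted p = 0.198). NONMMUT023711.2, which overlapped an annotated lncRNA gene and lay 158932 bases from Myc, read 0.676, 1.18 and 0.811 against 0.00815, 0.0118 and 0.00764. NONMMUT061626.2, in Snhg14 and Ipw, was listed at 4.15, 1.02 and 0.902 in control and at 0 in all RSD mice, and MERGE.1885.110, in Dpp10, read 0.0106, 0.0406 and 0.474 against 3.84, 1.15 and 6.01. All 4 passed the filter only through the group where they were higher. For the last pair the sums of their loci, given above, overlapped between groups.

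The runs of neighbouring transcripts were compared by their sums. Of the 26 runs with at least 40 transcripts, 20 had a negative median log2 fold change and 6 a positive one. In 14 all RSD sums lay between the lowest and highest control sum, in 17 the lowest of the 6 sums was that of control 1, and in 4 the groups did not overlap (1 higher and 3 lower in RSD mice). Over all lncRNA loci tested the groups were apart in 3.32% with RSD higher and 8.05% with RSD lower. Those shares are for single locus IDs and not for sums over at least 40 transcripts.

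Those 4 were the Lncpint run, the Hdac9 run and 2 others. The run on chromosome 13 near Mef2c, a transcription factor of neurons, held 42 transcripts and summed to 54.0, 84.7 and 74.0 FPKM in control and 49.9, 45.9 and 49.2 in RSD mice, with a median log2 fold change of -0.54 and 2 transcripts lower at the study threshold. The run on chromosome 2 whose nearest mRNA is Nebl held 41 and summed to 35.7, 36.2 and 37.1 against 21.9, 27.8 and 25.2, with a median of -0.45 and 3 lower. At that threshold 1.37% of all lncRNA transcripts tested were lower. In 15 alternative fits these medians ran from -0.79 to -0.32 near Mef2c and from -0.53 to -0.19 near Nebl. The Hdac9 run summed to 123, 182 and 152 against 117, 120 and 121. The Lncpint run, which reaches beyond that gene, summed to 581, 721 and 683 against 757, 743 and 868.

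The run with the most calls covered the lncRNA gene Gm33228 on chromosome 18, whose nearest mRNA is Celf4, an RNA-binding protein of neurons. It held 130 transcripts, with a median log2 fold change of -0.37, 8 lower and none higher at the study threshold, which 1.37% (lower) and 1.07% (higher) of all lncRNA transcripts passed. It was picked for that count. Its sums were 133, 268 and 205 in control and 145, 134 and 153 in RSD mice, so control 1 stood below all RSD mice and the groups overlapped. Without control 2 the median was -0.14 and without control 1 it was -0.63. In the Ppargc1a run, with a median of 0.28, the sums were 114, 197 and 181 against 175, 176 and 216, and control 1 was again the lowest. Without it the median of that run was 0.01.

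**Figure D5:**
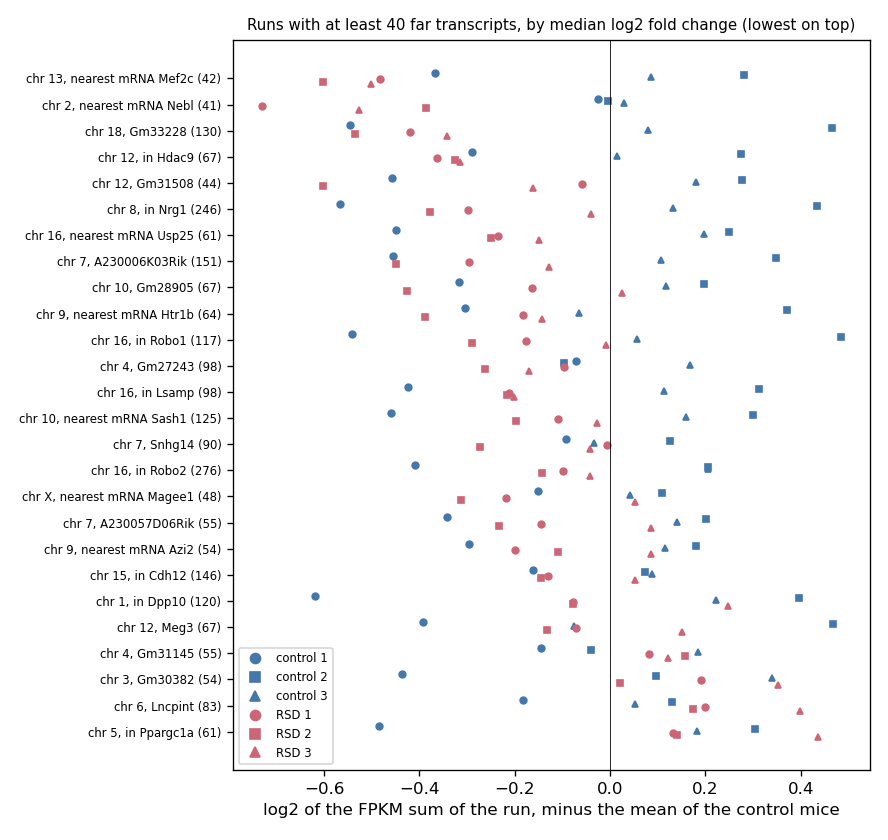
Each row is 1 of the 26 runs with at least 40 far lncRNA transcripts, and each point is the log2 FPKM sum of the run in 1 mouse minus the mean of the control mice. Control 1 is the lowest point in 17 rows. All RSD mice are below all control mice in the runs near Mef2c and Nebl and in Hdac9, and above them in the Lncpint run.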

How the data were processed

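RNA of the PFC of 3 control and 3 RSD mice had been sequenced paired-end from strand-specific, ribosomal RNA-depleted libraries. The authors built transcripts with Cufflinks tools and deposited FPKM per transcript and mouse, divided by their software among isoforms. The submitters' processing notes name Bowtie 0.12.2 and mm9, but of 31305 mRNA transcripts matched by symbol 99.9% overlapped their GRCm38.p6 RefSeq gene, so positions were read as GRCm38. Fold changes and p-values of the authors are in the deposited files and were not used. Library depth was only estimated, as a ratio.

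Transcripts with at least 0.5 FPKM in 3 of 6 mice, and sums over the lncRNA transcripts of a locus ID, were fitted as log2(FPKM + 0.1), which understates changes of low values, with limma 3.58.1 in R 4.3.3 (trend, Benjamini-Hochberg over all lncRNA transcripts or loci). Exact permutation tests covered the 20 assignments of mice. The fit was also run on simulated data, drawn independently for each transcript or locus, with changes added only at higher levels. That run cannot show how the fit does for changes of low values or for isoforms that share fragments. Python 3.11.15, pandas 2.3.3, numpy 2.4.6 and matplotlib 3.10.9 were used. p-values measure the spread between these mice, and overlapping or near-identical transcripts may share fragments.

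Named are the 10 most abundant loci, the 5 transcripts and 5 loci with the smallest p in each direction, the 3 farthest, 2 longest and 2 shortest transcripts, and 38 known lncRNAs. No far transcript was matched to a list of 7 structured RNAs, in a lookup with the same limit of strand. The abundant calls, hosts, runs and hairpins were chosen after their values were seen, and the transcripts and lists with earlier results of these data known. Alternatives were pseudocounts, filters, distances, scalings, no trend, the replicate block, a joint fit with mRNAs, each mouse left out and, chosen after seeing the data, transcripts outside coding genes.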

Additional observations from a re-analysis of the deposited data

How the results depend on the processing

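The adjusted counts of far transcripts, 0 higher and 1 lower, were 1 and 2 with a pseudocount of 1, 1 and 2 without the trend, 0 lower with a pseudocount of 0.001, and between 0 and 3 higher and 0 and 3 lower with 1 mouse left out. At the study threshold, 33 higher and 66 lower, a pseudocount of 1 gave 14 and 10, a filter of 1 FPKM gave 16 and 29, and leaving out 1 mouse gave 23 to 47 higher and 60 to 112 lower, 112 without control 1. Outside coding genes, an alternative chosen after seeing the data, 2868 transcripts remained, 20 of them higher. Of loci, 0 passed the adjusted threshold, and 1 did with a pseudocount of 1 and without the trend. The 59 loci at the study threshold became 4 with a pseudocount of 1, 24 with a filter of 1 FPKM, 90 at a distance of 20000 bases, and 68 to 114 with 1 mouse left out (94 without control 3, 114 without control 1). The cause was not tested.

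Deviations of mice with the same number were hardly correlated (0.0597, -0.0501 and 0.079). RSD 1 and RSD 3 correlated best with the control of their own number, and RSD 2 with control 1 (0.0613). Values this small cannot decide whether the numbers pair the mice, and the main fit treated them as names. With the replicate block 39 transcripts were higher and 60 lower at the study threshold, 0 and 0 at the adjusted one, and the adjusted p of NONMMUT150291.1 was 0.118. With a pseudocount of 0.001 it was 0.0756.

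Of 427 alternatives for 27 named transcripts, 396 kept direction and side of the adjusted threshold, 6 lost it, 4 gained it and 21 turned the sign in 8 transcripts whose log2 fold change was small. With 1 mouse left out these ran from -0.22 to 0.23 for MERGE.10307.2, -1.15 to 1.2 for MERGE.10673.8, -2.34 to 2.21 for MERGE.49328.1, -0.2 to 0.1 for NONMMUT078694.1, -0.23 to 0.2 for NONMMUT100037.1, -0.28 to 0.01 for NONMMUT100096.1, -0.29 to 0.01 for NONMMUT100142.1 and -0.19 to 0.24 for NONMMUT154232.1. Quantile normalization gave -0.01 for MERGE.10307.2 and 0.01 for MERGE.49328.1, scaling to the median 0.08 for MERGE.49328.1 and 0.06 for NONMMUT078694.1, and a pseudocount of 1 gave -0.23 for MERGE.10673.8. The calls gained were NONMMUT145231.1 (adjusted p 0.0386 with a pseudocount of 1 and 0.00398 without the trend), NONMMUT086706.1 (0.0366 with a pseudocount of 1) and NONMMUT023711.2 (0.0112 without the trend). Values near 0.1 FPKM rest on few fragments, and the depth to judge them is not in these values.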
